A study of Homo sapiens with 12 samples.

Results

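The replication-dependent histone genes are the clustered genes that encode the bulk of the core histones H2A, H2B, H3 and H4 and the linker histone H1. They were taken by symbol, as H1-1 to H1-6 and every gene named H2AC, H2BC, H3C or H4C with a number, together with genes whose older name starts with HIST1, HIST2 or HIST3. Pseudogenes by name or by RefSeq biotype, 21 in all, were left out, among them H3-7, whose older name (HIST2H3PS2) marks a pseudogene although RefSeq lists it as protein-coding. This gave 71 genes of the 61552 gene identifiers in each file, with 6 H1, 17 H2A, 19 H2B, 14 H3 and 15 H4 genes. In the RefSeq gene table for GRCh38.p14, 55 lay on chromosome 6, 14 on chromosome 1, 1 (H4C16) on chromosome 12 and 1 (H2BC12L) on chromosome 21, and those last 2 genes stand outside the clusters of chromosomes 6 and 1. H3-4 was included through its older name, HIST3H3.

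The libraries came from RD, an established human line of embryonal rhabdomyosarcoma, a childhood tumour with features of skeletal muscle, whose genotype label is FN-RMS. RD cells were grown in RPMI medium with fetal bovine serum and transfected, with Lipofectamine RNAiMAX, with a scrambled siRNA (3 libraries) or an siRNA against EHMT1 (3 libraries), and RNA was taken after 48 h. EHMT1, also called GLP, is a methyltransferase that acts on lysine 9 of histone H3. Both groups were therefore transfected cells of 1 line, and no untransfected cells are among them. The question was how silencing EHMT1 changes the transcriptome, and the series' 6 libraries of a SOX8 siRNA experiment are not analysed here. The labels do not say whether the replicates were separate cultures, so the p-values measure the spread between these libraries, which may be technical.

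Replication-dependent histone genes are made in S phase, when new DNA has to be packed into nucleosomes, and their transcription is switched on by NPAT at the histone locus bodies. They lack introns, and their messages are the main class of metazoan mRNA without a poly-A tail. A conserved stem-loop just past the stop codon is bound by SLBP, the stem-loop binding protein, and the U7 snRNP directs cleavage a few bases further on. A minor share of the transcripts of some of these genes instead runs on to a polyadenylation site. The RNA here was captured on poly-T beads, per the labels' protocols, a step that selects for poly-A tails.

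The stem-loop marks where the tail-less message ends, and so which annotated transcripts of these genes continue beyond that point. It was looked for in the GENCODE 29 transcripts (GRCh38), in which 70 of the 71 genes were found, 67 by identifier and 3 by older name. A 16-base histone 3′ stem-loop was found in the transcripts of 31 of these 70 genes, 30 without and 1 with a mismatch. An exact one was held by 95 of all 206694 transcripts (0.046%), which came from 63 genes, 30 of the set and 33 outside it. Whole transcripts were searched, so a match need not lie past the stop codon. Many models of the set's genes without a match hold only the coding sequence, so a stem-loop past the stop codon could not be found in them. The 31 genes carried 6 distinct stem-loops, and 1 gene for each is printed 5′ to 3′ on the sense strand with T for U, the stem-loop in capitals and 5 bases on each side. The last line shows H2AX, a histone variant gene outside the set, for comparison.
H2BC21: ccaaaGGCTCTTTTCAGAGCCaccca
H2BC5: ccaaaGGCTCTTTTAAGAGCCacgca
H3C6: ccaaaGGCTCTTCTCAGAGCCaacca
H2AC11: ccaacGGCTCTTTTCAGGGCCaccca
H4C8: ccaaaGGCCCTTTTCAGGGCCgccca
H4C9: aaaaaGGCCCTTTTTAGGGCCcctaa
H2AX: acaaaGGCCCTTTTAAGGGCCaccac

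The form shown for H2BC21 was shared by 16 genes, 5 of H2A, 8 of H2B and 3 of H3. The form of H2BC5 was shared by 5 genes, 3 of H2B and 2 of H3. Both H4 forms were found in H4 genes only among the 31, the form of H4C8 in 5 and the form of H4C9 in 3. The remaining forms occurred once each, in H3C6 and H2AC11. All 6 base pairs of the stem were complementary in 30 of the 31 genes, and in H2AC11 5 of the 6 were. None of these matches shows that the RNA counted here was cut or not cut at the loop.

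EHMT1 fell from 139 ± 14.7 to 55.1 ± 2.26 CPM (counts scaled to a common library size, SD, n = 3 each; log2 fold change −1.34, edgeR adjusted p = 9.13e-09), and its 3 EHMT1 siRNA libraries lay below every scrambled library. Libraries held 40639655 to 47258481 reads counted on genes. The second scrambled library stood somewhat apart, with 5.41% of its gene counts on mitochondrial genes against 4.29% to 4.83% in the other 5. Of the 10 muscle lineage markers, MYOD1 and DES and 7 others were detected and MYF5 was at 0 in every library, while 10 markers of blood, epithelial, endothelial, liver and neural crest cells summed to 0.470 to 0.923 CPM per library.

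Reads from the histone genes were few. Together the 71 genes gave 2817 to 3722 reads per library, which is 0.00684% to 0.00788% of the gene counts. Of the 71 genes, 68 had at least 1 read in some library, and H1-1, H3C4 and H3C14 had none, where 3 reads in a library would be 0.0641 to 0.0751 CPM. Every 100-base window of the H3C4 and H3C14 transcripts also occurs in other genes, so reads from these 2 genes might not be assigned to them. Counts high enough for a test, by edgeR's filter with a minimum of 10, were reached by 29 genes: 1 of H1, 8 of H2A, 12 of H2B, 4 of H3 and 4 of H4. The 42 genes below the filter held 0 to 23 reads in any library, and 15 of them never exceeded 3. The fold changes described below therefore cover 29 of the 71 genes. With no filter, 68 were fitted and 9 had an unadjusted p under 0.05 in the edgeR test, beside 5758 of all 36312 genes fitted. H2AC14 alone of the histone genes passed the edgeR adjusted threshold there, where 1212 of all genes rose and 1298 fell.

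A few genes held most of these reads. H2BC12, an H2B gene, alone gave 31.0% of the reads of all 71 genes. H1-2, a linker histone gene, gave 10.6%, and H2BC5 gave 9.07%. By family, H2B genes took 58.3% of the reads, H2A genes 19.1%, H1 genes 11.1%, H3 genes 5.93% and H4 genes 5.67%. These are shares of reads and not of molecules, since they are not divided by the length of the gene models behind the counts, which are not given in the sources used here.

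The ends of the annotated transcripts were set beside the reads. In 23 genes a GENCODE 29 transcript with the stem-loop ran at least 100 bases past the stem-loop (116 to 1917 bases), a limit chosen after the values were seen. Of these 23 genes 17 passed the filter, and their median was 146 reads over the 6 libraries. In 8 genes the transcripts with the loop ended 6 to 86 bases past it, of which 3 passed the filter, with a median of 45.5 reads. H2BC5, with 1737 reads, belongs to those 8, but it also has an annotated transcript that holds no loop, as do 6 of the 31 genes in all (H2AC6, H2BC4, H2BC5, H2BC15, H2BC18 and H4C16). The 39 genes whose transcript models hold no stem-loop had a median of 31.0 reads, 9 passed the filter, and H2BC12 (5930 reads) and H1-2 (2021 reads) were among them. Many of these 39 genes have models that hold only the coding sequence, H2BC12 and H1-2 (381 and 642 bases) among them. What follows the coding region of those genes was not searched, so the models do not show that they lack a stem-loop. In 16 of the 23 genes at least 1 transcript that ran on held a polyadenylation signal (AATAAA or ATTAAA) in its last 50 bases. Of 83129 protein-coding transcripts 44.2% held one. That share is per transcript, and some of the 23 genes have several transcripts, so the values are not directly comparable. These models also differ in length, whose part in the read counts was not tested.

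**Figure D1:**
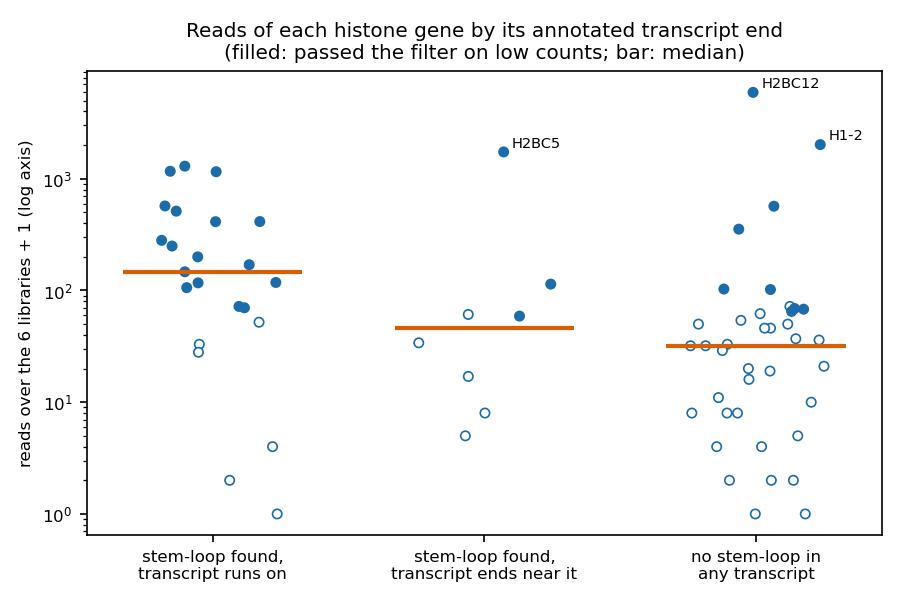
Reads of each of the 70 matched histone genes, summed over the 6 libraries plus 1 (log axis), by how its GENCODE 29 transcript ends. Points are genes spread sideways for legibility, filled where the gene passed the filter on low counts, and bars are medians (146, 45.5 and 31.0 reads before adding 1). The highest points, H2BC12 and H1-2, have no stem-loop in their transcript models. Many models without a stem-loop, these included, hold only the coding sequence.

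The summed level of the histone genes was slightly lower in the EHMT1 siRNA libraries. The sum over all 71 genes was 79.5, 80.0 and 77.0 CPM in the scrambled libraries and 73.1, 67.9 and 74.7 CPM in the EHMT1 siRNA libraries. All 3 EHMT1 siRNA libraries lay below all 3 scrambled ones, and the means were 78.8 ± 1.62 and 71.9 ± 3.56 CPM (SD, n = 3 each), so that 91.2% was left, a log2 ratio of −0.13. Leaving out any 1 library gave log2 ratios of −0.16 to −0.09. Without H2BC12 the sums were 53.7 ± 0.463 and 50.3 ± 2.36 CPM (SD, n = 3 each), or 93.7% left. In bulk RNA, fewer cells in S phase and less histone RNA per cell cannot be told apart.

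The families did not all lie on the same side. Summed H2B reads were 44.5 to 48.8 CPM in the scrambled and 39.2 to 42.7 CPM in the EHMT1 siRNA libraries, without overlap, a log2 ratio of −0.17. Summed H2A reads had a log2 ratio of −0.19, also without overlap but with a gap of less than 0.1 CPM between the nearest libraries. H1 genes stood at −0.16 with overlapping libraries. H3 genes stood at 0.17 and H4 genes at 0.19, with overlapping libraries in both. The H3 ratio was −0.03 without the second scrambled library, which held 2.93 CPM of H3 reads against 4.77 and 4.87 CPM in the other scrambled ones. The H4 ratio was 0.00 without the third EHMT1 siRNA library, which held 5.64 CPM against 4.02 and 3.98 CPM in its group.

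**Figure D2:**
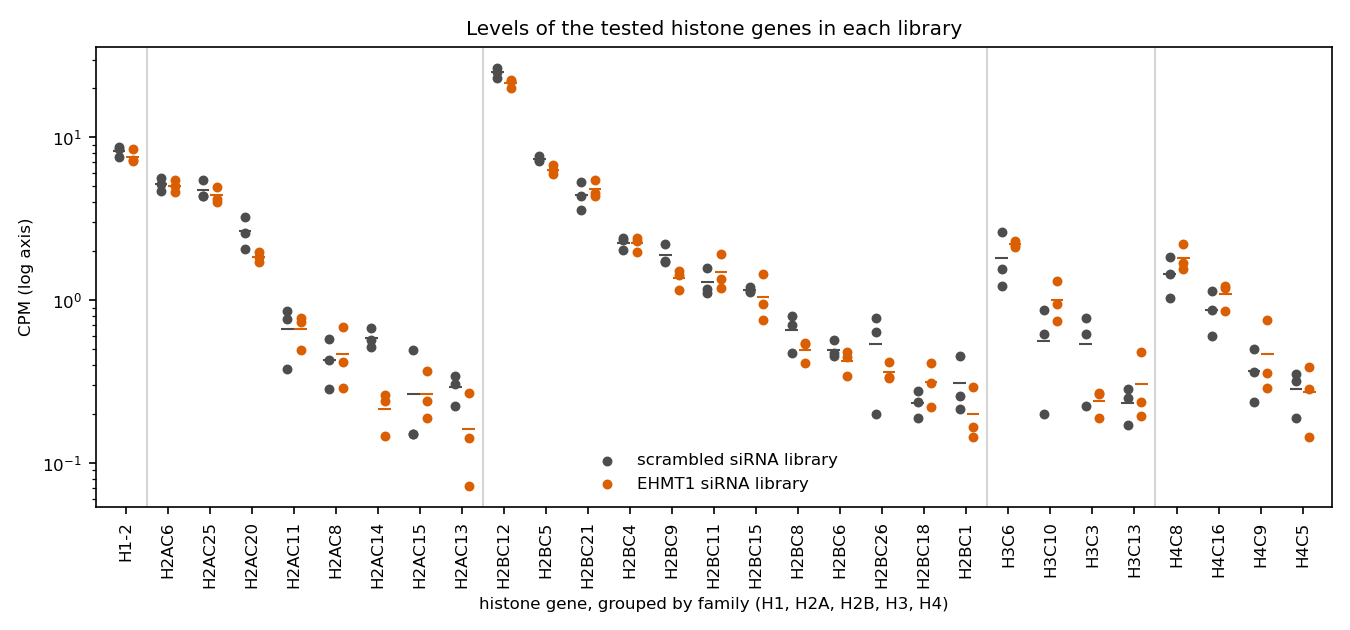
CPM (log axis) of the 29 tested histone genes in each of the 6 libraries, ordered by family and level. Grey points are scrambled siRNA libraries, orange points EHMT1 siRNA libraries, and short lines are group means. In H2AC14, H2AC20, H2BC5, H2BC9 and H2BC12 all orange points lie below all grey ones.

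Gene by gene, 1 of the 29 tested genes fell and 0 rose at an edgeR adjusted p under 0.05, or 3.45%, where 12.4% of all 18646 genes tested passed (6.54% fell and 5.81% rose). At an unadjusted p under 0.05 there were 7 of 29 (6 lower and 1 higher), beside 25.6% of all genes. Groups did not overlap in 5 of 29 genes (H2AC14, H2AC20, H2BC5, H2BC9 and H2BC12), all lower after EHMT1 siRNA, beside 30.9% of all genes. The median log2 fold change was −0.07, against 0.00 over all genes, with values from −1.42 to 0.82. Leaving out 1 library put this median between −0.22 (without the first EHMT1 siRNA library) and −0.05. Those fits were filtered anew and tested 31 to 37 histone genes, so their medians are not over the same 29. Low counts limit these comparisons: the median standard error was 0.33 for the histone genes and 0.10 for all genes. Among genes with an average log2 CPM under 0, a split made after the values were seen, 2.68% of 4322 passed and 1 of 15 histone genes did. Among those at or above 0, 15.3% of 14324 passed and 0 of 14 histone genes did. The median standard error there was still 0.18 for the 14 histone genes, against 0.08 for the 14324, so the split did not even out precision.

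The gene that fell was H2AC14 (ENSG00000276368), which encodes a canonical H2A. Its level was 0.513, 0.676 and 0.565 CPM in the scrambled libraries and 0.260, 0.241 and 0.146 CPM in the EHMT1 siRNA libraries. The groups lay well apart, but the counts behind them were small, 24, 27 and 24 reads against 11, 10 and 6. H2AC14 fell by 1.42 on the log2 scale (SE 0.40) at an edgeR adjusted p of 0.0264. The call was lost without the third scrambled library (edgeR adjusted p = 0.0540) and without any 1 of the EHMT1 siRNA libraries (edgeR adjusted p = 0.0641, 0.0883 and 0.145), with fold changes of −1.57 to −1.21 over all 6 such fits. Only 19.1% of the 100-base windows of its GENCODE 29 transcript occur in no other gene's transcript. The rest is shared with H2AC13, a near-identical H2A gene, so that the reads of the pair may not be fully separable.

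H2AC13 itself stood at 0.342, 0.225 and 0.306 CPM in the scrambled and 0.142, 0.072 and 0.269 CPM in the EHMT1 siRNA libraries. The third EHMT1 siRNA library overlapped the scrambled ones, and the log2 fold change of −0.86 did not pass (edgeR adjusted p = 0.329). With the reads of H2AC13 and H2AC14 added into 1 entry, an alternative chosen after seeing the data, the pair had 40, 36 and 37 reads in the scrambled and 17, 13 and 17 in the EHMT1 siRNA libraries. The summed pair fell by 1.21 on the log2 scale (SE 0.31, edgeR adjusted p = 0.0157).

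Among the other H2A genes the most read was H2AC6, at 5.64, 4.66 and 5.16 CPM in the scrambled and 5.44, 4.99 and 4.64 CPM in the EHMT1 siRNA libraries. The groups overlapped almost entirely, with a log2 fold change of −0.04 (95% interval −0.30 to 0.22, edgeR adjusted p = 0.884). H2AC25, a gene of chromosome 1 once named HIST3H2A, was at 4.38, 5.43 and 4.36 against 4.97, 4.19 and 4.0 CPM. Its groups overlapped too (log2 fold change −0.10, 95% interval −0.39 to 0.19, edgeR adjusted p = 0.698). H2AC20 was at 2.07, 3.25 and 2.59 CPM in the scrambled and 1.99, 1.71 and 1.83 CPM in the EHMT1 siRNA libraries. Its groups did not overlap, but the log2 fold change of −0.51 missed the threshold (edgeR adjusted p = 0.0896), and it passed only without the first scrambled library (edgeR adjusted p = 0.0318). The fold changes of H2AC8, H2AC11 and H2AC15 were 0.12, 0.00 and 0.01, with standard errors of 0.34 or more.

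Among the H2B genes stood the most precisely measured of the 29. H2BC12 (ENSG00000197903) was at 25.3, 26.7 and 23.3 CPM in the scrambled and 22.2, 20.2 and 22.4 CPM in the EHMT1 siRNA libraries. All EHMT1 siRNA libraries were lower, with a log2 fold change of −0.22 (SE 0.076, 95% interval −0.38 to −0.06), which missed the threshold (edgeR adjusted p = 0.0726). It passed without the third scrambled library (edgeR adjusted p = 0.0435). Of its GENCODE 29 transcript's 100-base windows 71.6% occur in no other gene. The rest is shared with entries named H2BFS there, H2BC12L among them.

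H2BC5 showed a difference of the same size, at 7.16, 7.69 and 7.25 CPM in the scrambled and 5.94, 6.73 and 6.27 CPM in the EHMT1 siRNA libraries. The groups did not overlap, and the log2 fold change of −0.22 did not pass (95% interval −0.44 to −0.00, edgeR adjusted p = 0.191). H2BC21 was at 4.38, 5.31 and 3.58 CPM in the scrambled and 4.33, 4.56 and 5.49 CPM in the EHMT1 siRNA libraries. Here the groups overlapped, with a log2 fold change of 0.12 (95% interval −0.20 to 0.43, edgeR adjusted p = 0.684). H2BC9 had a log2 fold change of −0.46 without overlap of the groups (edgeR adjusted p = 0.160). The other 8 tested H2B genes lay between −0.59 (H2BC1) and 0.42 (H2BC18), and 6 of those 8 were negative.

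In the H1 family H1-2 was the only gene tested. It stood at 8.76, 7.58 and 8.45 CPM in the scrambled and 7.24, 7.11 and 8.50 CPM in the EHMT1 siRNA libraries. The third EHMT1 siRNA library reached the scrambled range, and the log2 fold change was −0.12 (95% interval −0.35 to 0.10, edgeR adjusted p = 0.524).

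The H3 genes went apart from each other, on few reads. H3C3 was at 0.620, 0.225 and 0.777 CPM in the scrambled and 0.189, 0.265 and 0.269 CPM in the EHMT1 siRNA libraries. The second scrambled library, with 9 reads, lay inside the EHMT1 siRNA range, and the log2 fold change of −1.17 did not pass (edgeR adjusted p = 0.113), whereas without that library it did (edgeR adjusted p = 0.00991). H3C10 was at 0.620, 0.200 and 0.871 CPM in the scrambled and 0.946, 0.747 and 1.32 CPM in the EHMT1 siRNA libraries. Again the second scrambled library was the lowest, with 8 reads, the groups overlapped, and the log2 fold change of 0.82 did not pass (edgeR adjusted p = 0.192). It was 0.43 without that library and 1.25 without the third scrambled one. H3C6 was at 2.63, 1.23 and 1.55 CPM against 2.11, 2.19 and 2.29 CPM, with overlapping groups, the second scrambled library again lowest and a log2 fold change of 0.27 (edgeR adjusted p = 0.505), which was 0.06 without that library and 0.65 without the first scrambled one.

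Of the 4 tested H4 genes, H4C8, H4C9 and H4C16 had positive log2 fold changes, 0.32, 0.35 and 0.31, and H4C5 stood at −0.07. None of these 4 passed the test. H4C8, the most read of them, was at 1.45, 1.03 and 1.84 CPM in the scrambled and 1.68, 1.54 and 2.20 CPM in the EHMT1 siRNA libraries, with overlapping groups (95% interval −0.16 to 0.81, edgeR adjusted p = 0.416). H4C16, which lies outside the clusters on chromosome 12, was at 1.13, 0.601 and 0.871 CPM against 0.852, 1.18 and 1.22 CPM, also overlapping. The second scrambled library was the lowest of all 6 for 6 tested genes (H3C6, H3C10, H4C8, H4C16, H2BC11 and H2BC26). It was the highest of all 6 for 8 others. Each other library was the lowest for 2 to 8 tested genes, the second EHMT1 siRNA library for 8, and the highest for 2 to 6. Without the second scrambled library the log2 fold changes were 0.13 for H4C8, 0.10 for H4C16, 0.09 for H2BC11 and −0.97 for H2BC26. None of these 4 passed.

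**Figure D3:**
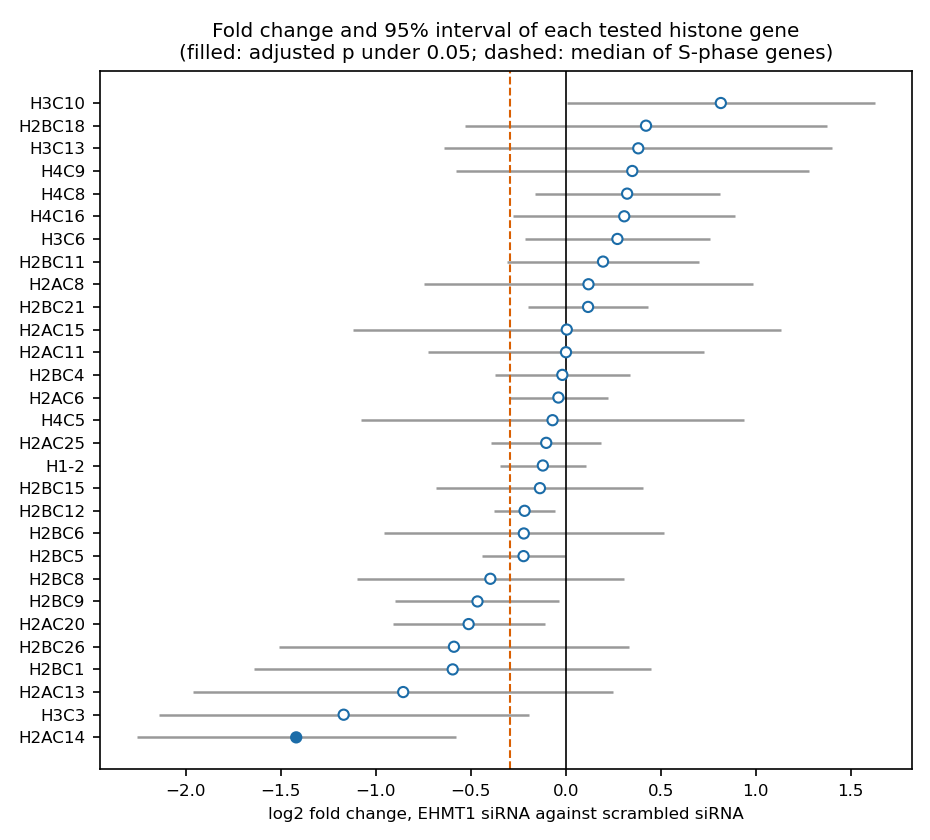
Log2 fold change (EHMT1 siRNA against scrambled siRNA, n = 3 each) of each tested histone gene with its 95% interval from the edgeR fit, in order of size. The filled point, H2AC14, is the gene past the threshold, the solid line is 0 and the dashed line is the median of the S-phase list (−0.29). Most intervals cross both lines.

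Many H2A and H2B genes sit head to head and share the stretch between them that holds both promoters. In RefSeq gene order 11 such pairs of neighbours were found among the members, 6 with both genes tested. Only direct neighbours were searched, among the 65 of the 71 genes with a promoter entry that gave the strand, so pairs may be missing. H2AC20 and H2BC21 had log2 fold changes of −0.51 and 0.12. H2AC25 and H2BC26 stood at −0.10 and −0.59, and H2AC8 and H2BC8 at 0.12 and −0.40. The genes of the remaining pairs lay closer together, at −0.04 and −0.02 (H2AC6 and H2BC4), 0.00 and 0.20 (H2AC11 and H2BC11) and 0.01 and −0.14 (H2AC15 and H2BC15). The differences within pairs were not tested. H2BC14, the neighbour of H2AC14, had 10 reads over all 6 libraries and fell below the filter.

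Histone genes are short and closely packed, so the column that counts only reads on the second strand was fitted as well. It gave the 71 genes 71.6 ± 1.21 CPM in the scrambled and 65.8 ± 3.65 CPM in the EHMT1 siRNA libraries (SD, n = 3 each). There, 0 of 26 tested histone genes passed, where 12.8% of 18725 genes did, and 4 had an unadjusted p under 0.05 in the edgeR test, beside 25.8% of all genes. The same 5 genes as in the unstranded column did not overlap, beside 31.1% of all genes. H2AC14 had a log2 fold change of −1.24 (edgeR adjusted p = 0.0608) and H2BC12 one of −0.22 (edgeR adjusted p = 0.0719). The median log2 fold change was 0.00. H2BC6 was the tested gene whose reads differed most in proportion between the columns, with 117 in the unstranded column and 289 in the second strand column over the 6 libraries. A read that overlaps genes on both strands counts for neither in the unstranded column. The H2BC6 log2 fold change was −0.22 in the unstranded and 0.07 in the second strand column, and passed in neither (edgeR adjusted p = 0.753 and 0.899).

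The machinery that makes and handles these messages was read far more deeply. Of 32 genes for histone gene transcription, 3′ end processing and decay, 1 rose and 2 fell (9.38%, beside the 12.4% of all genes), with a median log2 fold change of −0.06. SLBP, whose protein binds the stem-loop, was at 85.2, 89.2 and 78.1 CPM in the scrambled and 69.5, 69.9 and 71.8 CPM in the EHMT1 siRNA libraries. All EHMT1 siRNA libraries were lower, and SLBP fell by 0.26 on the log2 scale with a standard error of 0.061 (edgeR adjusted p = 0.0105). It missed the threshold without any 1 EHMT1 siRNA library (edgeR adjusted p = 0.0661, 0.0717 and 0.05001). SNRPB, a core protein of spliceosomal and U7 snRNPs, fell by 0.21 (edgeR adjusted p = 0.0431). TUT7, a uridylyltransferase that takes part in histone mRNA decay, rose by 0.23 (edgeR adjusted p = 0.0467). SNRPB and TUT7 missed the threshold whenever 1 library other than the second scrambled one was left out (edgeR adjusted p = 0.0780 to 0.267 and 0.111 to 0.180). Without the second scrambled library 8 of the 32 genes fell, and without any 1 EHMT1 siRNA library 0 did. NPAT and CASP8AP2, which encode proteins of the histone locus body, had log2 fold changes of −0.02 and −0.13 (edgeR adjusted p = 0.860 and 0.254).

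The histone variants listed here as replication-independent have genes outside the set, and most of their messages carry poly-A tails. Of 12 such genes 5 fell (41.7%, beside 6.54% of all genes) and 0 rose at an edgeR adjusted p under 0.05. Their median log2 fold change was −0.18. H2AX, the variant that is phosphorylated at DNA breaks, was at 128, 169 and 138 CPM in the scrambled and 89.1, 88.3 and 98.2 CPM in the EHMT1 siRNA libraries. The groups lay far apart and H2AX fell by 0.66 on the log2 scale (edgeR adjusted p = 7.33e-05). Its GENCODE 29 transcripts hold the stem-loop printed above and run 821 and 1044 bases past it, with a polyadenylation signal near the end. CENPA, the centromeric H3, fell by 0.50, H2AZ1 by 0.54 and H2AZ2 by 0.23. H3-3A and H3-3B, which encode H3.3, did not pass, at 0.15 and −0.12. Leaving out 1 EHMT1 siRNA library left 3, 3 and 2 of the 12 genes past the threshold. H2AX and CENPA passed in each of the 6 fits that left out 1 library.

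Of 25 tested histone chaperone genes 10 fell (40%, beside 6.54% of all genes) and 0 rose, with a median of −0.18. CHAF1A and CHAF1B, subunits of the CAF-1 complex that places new histones behind the replication fork, fell by 0.38 and 0.49 on the log2 scale. SET fell by 0.37 and RBBP7 by 0.35. Without the second scrambled library 17 of these genes fell, and without the second or the third EHMT1 siRNA library 5 and 6 did.

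S-phase and replication genes, which are active at the time histone genes are, fell in 38 of 48 cases and rose in 0. The share that fell was 79.2%, beside 6.54% of all genes, and the median log2 fold change was −0.29. LIG1, the ligase of lagging strand synthesis, fell by 0.66, MCM2 of the replicative helicase by 0.49, the transcription factor gene E2F1 by 0.47 and the phosphatase gene CDC25A by 0.45. Without the second EHMT1 siRNA library 22 of the 48 fell. Set against this list, the histone genes' own intervals were wide. The 95% interval of the log2 fold change held 0 in 22 of 29 histone genes and held −0.29, the S-phase median, in 23. Both values lay inside the interval in 18 genes, so that most of the histone genes could not be placed at either value at this depth. The interval held 0 and not the S-phase median in H2BC21, H3C6, H4C8 and H4C16, and the S-phase median and not 0 in H2AC20, H2BC5, H2BC9, H2BC12 and H3C3. It held neither in H2AC14, where it lay below both values (−2.26 to −0.58), and in H3C10, where it lay above both (0.0045 to 1.63). Whether the histone genes as a group changed less than the S-phase genes was not tested.

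**Figure D4:**
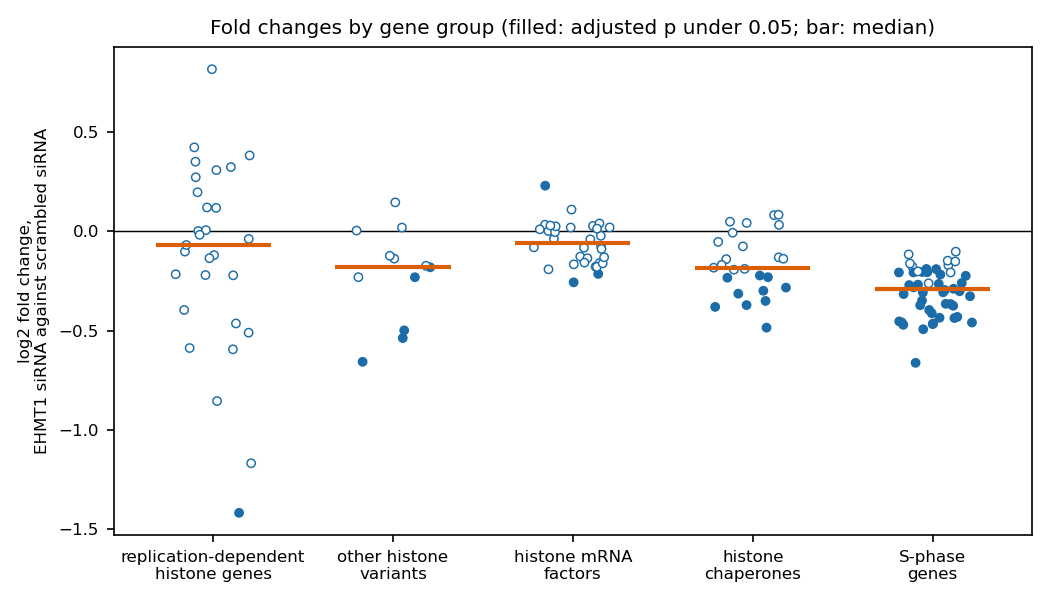
Log2 fold change (EHMT1 siRNA against scrambled siRNA) of each tested gene in 5 groups. Points are genes spread sideways, filled where the edgeR adjusted p was under 0.05, and bars are medians (−0.07, −0.18, −0.06, −0.18 and −0.29 from left to right). The histone genes scatter more widely than the other groups and hold 1 filled point.

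Other RNAs without a poly-A tail were looked at in the same libraries. Of 30 such genes 16 were detected and 3 tested. They were spliceosomal, small nucleolar and Cajal body RNAs, RNAs of ribonucleoprotein enzymes and RNA of the signal recognition particle. The summed level of the 30 genes was 46.0 to 61.7 CPM in the scrambled and 86.4 to 92.1 CPM in the EHMT1 siRNA libraries, without overlap. Most of this was RN7SL1, the RNA of the signal recognition particle, which was at 40.5, 38.8 and 54.0 CPM against 78.2, 84.3 and 81.4 CPM and rose by 0.87 on the log2 scale (edgeR adjusted p = 2.78e-05). SNORD17 and SNORA73B, at −0.03 and 0.14, did not pass. The part of RNA capture in the histone values was not tested.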

How the data were processed

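RNA-seq of poly-A captured RNA from 6 libraries was used. The deposited files hold raw read counts per gene in 3 columns (unstranded, first strand and second strand). STAR 2.5 and HTSeq 0.6.1 are listed, with CASAVA, bcl2fastq, DESeq2 and hg19, in the submitters' processing notes; the annotation release is not given in the sources used here. The identifiers include ones later than that build, so no coordinates are printed. Of the reads, 20.0% to 21.2% named no gene and were left out of library sizes.

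The unstranded counts were fitted with edgeR 4.0.16 (quasi-likelihood F test, filterByExpr with a minimum count of 10, TMM, Benjamini-Hochberg adjustment over all 18646 genes tested, threshold 0.05); the procedure was tested on simulated data. CPM uses TMM-scaled library sizes. Fold changes are EHMT1 siRNA over scrambled. The members and lists were chosen with earlier results of these data known. Values per library are given for members past the threshold, the 6 most read, the 3 largest changes that missed it and, chosen after their values were seen, H2AC20, H3C6, H4C8 and H4C16; up to 4 genes of the smallest adjusted p were named per other list, with SLBP, NPAT and CASP8AP2; H3-3A, H3-3B, SNORD17 and SNORA73B were added after their values were seen. Symbols came from a gene name table that matched 61399 of 61552 identifiers. Alternatives were RLE and upper-quartile scaling, other filters, DESeq2 1.42.0, limma-voom (limma 3.58.1), a replicate block, either strand column, a threshold of 0.01 and leaving out each library. Replicate libraries differed by more than sampling noise (chi-square per degree of freedom 2.96 to 20.9).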

Additional observations from a re-analysis of the deposited data

How the results depend on the processing

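The number of histone genes that fell (1) was 0 when 1 CPM was required in 3 libraries (14 tested), with DESeq2, in the second and in the first strand column (8 tested) and at an adjusted p under 0.01. DESeq2 gave no adjusted p for 13 of the 29 histone genes, H2AC14 among them. The number that fell was 0 to 2 when 1 library was left out. H2AC14 was called with RLE or upper-quartile scaling, no filter, limma-voom and the replicate block. The block on replicate number gave 2 (H2AC14 and H2BC12, edgeR adjusted p = 0.0474). The same-numbered libraries correlated at 0.13, 0.048 and 0.042, not all over 0.1, so the numbers were not taken as pairs. No histone gene rose in any of these settings, where 0 (first strand column) to 9 (no filter) had an unadjusted p under 0.05. Over all genes it was 1855 of 15940 in the first strand column and 5758 of 36312 with no filter. The members' median log2 fold change ran from −0.22 to 0.00, over the 8 to 68 members that each setting tested. Over all genes, 1084 rose and 1220 fell. In the first strand column 90 rose and 87 fell, and at an adjusted p under 0.01 the numbers were 492 and 525. Leaving out 1 library gave 452 to 1625 rising and 484 to 1923 falling genes, the most without the second scrambled library. Depth limits the histone genes, since 42 of 71 fell below the filter and most tested ones had standard errors above 0.3.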

Other observations

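Of the 21 pseudogenes left out, H2BC20P had 156 to 244 reads per library, more than all but a few of the histone genes counted here, and a log2 fold change of −0.00 (edgeR adjusted p = 0.992). H2BC19P had 42 to 69 reads per library in the unstranded column and 175 to 255 in the second strand column, with a log2 fold change of −0.26 in the former (edgeR adjusted p = 0.532). H2BC12L, whose transcript has no 100-base window of its own, had 31 reads over the 6 libraries beside 5930 for H2BC12.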
